A study of Mus musculus with 8 samples.

Results

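The genes described here are 10 markers of injured hepatocytes, liver progenitors and bile ducts: Ly6d, Spink1, Cd24a, Sox9, Spp1, Epcam, Krt8, Krt18, Krt19 and Krt7. They were chosen from earlier results of the same comparison, in which Ly6d and Spink1 stood out, together with ductal markers and the hepatocyte keratins. Their differences between the groups are therefore given as a description, with no p-value. All 10 were found among the 52551 rows of each count table, and 6 of them had enough counts to be tested in the fit across 8669 genes. Cd24a, Epcam, Krt19 and Krt7 had too few counts.

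RNA was taken from livers of male C57BL/6 mice at 6 weeks of age and read by QuantSeq, which sequences the 3' ends of messenger RNAs, in 4 PiZ and 4 PiZ/Chop-/- libraries. PiZ is a transgene for the Z variant of human alpha-1 antitrypsin, a secreted protein that misfolds and builds up in the endoplasmic reticulum of hepatocytes. Every mouse of both groups carried it, and the PiZ/Chop-/- mice also lacked Chop (Ddit3), a transcription factor of the endoplasmic reticulum stress response. The wild-type mice of the design text were not analysed here, so no level below is set against a healthy liver. The labels name neither the promoter of the transgene nor whether each library is a separate mouse, so the spread between libraries may be technical.

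Library totals ran from 1650260 to 3064385 counts. Ddit3 counts were 180 to 595 in PiZ and 3 to 9 in PiZ/Chop-/- libraries, and those of the human SERPINA1 row 1956 to 4482 and 964 to 1529. Scaled, SERPINA1 was 950 to 1845 CPM in PiZ and 554 to 712 CPM in PiZ/Chop-/-, with no overlap. The groups thus differed in transgene RNA as well as in Chop. The part of the transgene level in the differences below was not tested, and "with Chop" and "without Chop" only name the groups. The mean correlation of a library with the others of its group was 0.914 to 0.951, lowest in PiZ replicate 4. All 19 hepatocyte markers that were found (Alb, Ttr, Hnf4a and others) were tested, and their summed level was 79290 to 92610 CPM with Chop and 78350 to 85520 CPM without it. CPM are counts scaled to a common library size (per 1e6). Values after ± are SDs over 4 libraries, and fold changes are log2 values with their SE, negative where PiZ/Chop-/- was lower.

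When liver injury lasts, the bile ducts can expand in what is called a ductular reaction, and hepatocytes can take on features of duct cells. Sox9, osteopontin (Spp1), Epcam, Cd24a and the duct keratins Krt7 and Krt19 are commonly used to follow this. Mature mouse hepatocytes build their intermediate filaments from the keratin pair Krt8 and Krt18, which injury can induce, while duct cells add Krt7 and Krt19.

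Ly6d showed the widest separation. It encodes a small lipid-anchored surface protein of the Ly6 family, known as a marker of early B-lineage cells and of some epithelia. In PiZ livers it stood at 175, 114, 148 and 111 CPM in replicates 1 to 4. In PiZ/Chop-/- livers it stood at 4.65, 4.02, 9.93 and 2.80 CPM. Every PiZ library lay far above every PiZ/Chop-/- library, and the raw counts were 233 to 461 against 6 to 20. The means were 137 ± 30.7 and 5.35 ± 3.15 CPM (SD, n = 4 each), a 25.6-fold lower mean without Chop. The fold change was -4.66 (SE 0.32), the 3rd lowest of the 8669 tested genes. Without PiZ/Chop-/- replicate 3, the highest of its group, it was -5.14. Ly6d (ENSMUSG00000034634) lies on the minus strand at chr15:74762056-74763620 (mm10).

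Spink1 was the other gene whose groups were apart. It encodes a secreted Kazal-type inhibitor of trypsin, best known from pancreatic acinar cells. Spink1 stood at 81.8, 64.6, 79.7 and 100.1 CPM in the PiZ libraries. The PiZ/Chop-/- libraries had 28.8, 15.5, 20.9 and 21.4 CPM. The lowest PiZ value was thus above the highest PiZ/Chop-/- value, and neither group had a library far from its others. Means were 81.6 ± 14.6 and 21.7 ± 5.46 CPM (SD, n = 4 each), 3.77-fold lower without Chop. The fold change of -1.90 (SE 0.23) ranked 39th from the lowest, and the gene (ENSMUSG00000024503) is annotated on the minus strand at chr18:43728082-43737557.

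Of the 6 tested members, these 2 were past the threshold (Benjamini-Hochberg adjusted p below 0.05, edgeR), both lower, and none was higher. Over all 8669 genes 1.03% passed in either direction and 0.692% passed as lower. In the same 2 genes the groups did not overlap. Over all tested genes that held for 7.88%, of which the lower ones came to 4.22%. Since the members were chosen on this contrast, nothing is read from these counts. The median fold change of the 6 was -1.02, against -0.0016 over all tested genes. With no filter on low counts Krt8 and Krt18 were past the threshold as well, making 4 of these 6. That fit tested more genes and called 357 of them, against 89 in the filtered fit. The 4 of 6 is therefore not to be set against 1.03%, and nothing is read from it either.

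**Figure D1:**
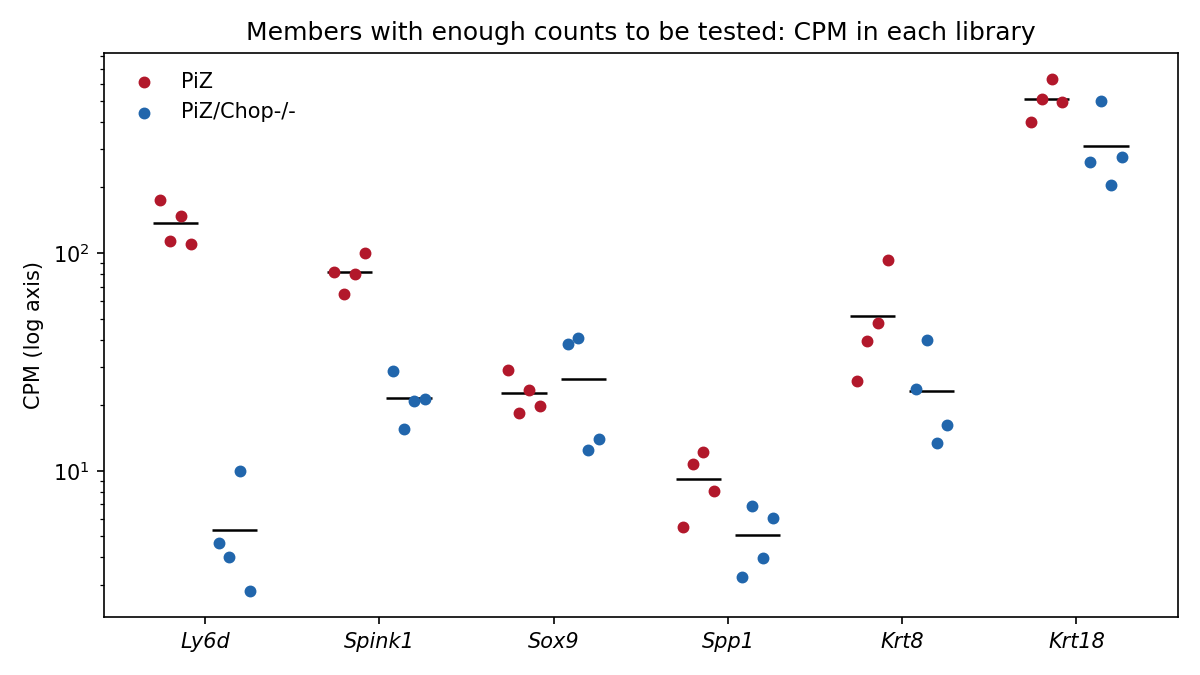
CPM (log axis) of the 6 members with enough counts, in 4 PiZ (red) and 4 PiZ/Chop-/- (blue) libraries, with the mean of each group as a bar. Ly6d and Spink1 are apart in every library (137 and 81.6 CPM on average in PiZ, 5.35 and 21.7 in PiZ/Chop-/-), while the groups overlap for Sox9, Spp1, Krt8 and Krt18.

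In whole liver, fewer cells that express a gene and less RNA per cell cannot be told apart. Ly6d and Spink1 each have another cell type as a usual source, so its markers were counted. Of 18 B cell genes 1, the antibody light chain Igkc, had enough counts (-0.20, SE 0.50, adjusted p = 0.907, edgeR). Their summed level was 14.8 to 26.7 CPM with Chop and 16.1 to 25.8 CPM without it, and Cd79a, Pax5 and Ms4a1 had 1, 2 and 4 counts over all 8 libraries. Of 31 Kazal inhibitor and pancreatic acinar genes 16 had no count in any library. Amy2a5 (amylase) and Cpa1 (carboxypeptidase) were among them, and Prss2 (trypsinogen) and Ctrb1 (chymotrypsinogen) had 2 and 1 counts. Pnliprp1, a pancreatic lipase-related protein named after its values were seen, went the way of Spink1, with 8, 5, 10 and 3 counts in PiZ and 0 in every PiZ/Chop-/- library. It was too low for the test and was past the threshold in the edgeR fit that kept low genes (adjusted p = 0.00495). The lipase Pnlip had 4 counts, all in PiZ replicate 4. Cela1, an elastase, held 2131 of the 2255 counts of the list and was the 1 tested member (0.090, SE 0.29, adjusted p = 0.928). The summed level of the list, which Cela1 dominates, was 103 to 171 CPM in PiZ and overlapped with 84.9 to 211 CPM in PiZ/Chop-/-. Without Cela1, a sum chosen after seeing the data, it was 6.32 to 16.6 CPM in PiZ and 2.79 to 5.96 CPM in PiZ/Chop-/-, with no overlap, from 6 to 30 counts per library. That sum includes Pnliprp1 and is thus not separate from its result. It also includes the Kazal inhibitors Spink5 and Spink10 (29 and 41 counts over all libraries), so it is not a sum of acinar genes alone. The part of acinar transcripts in the Spink1 level was not tested.

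No relative or neighbour of Ly6d was past the threshold in the filtered edgeR fit of all 8 libraries. Of 34 other Ly6 and uPAR family genes that were found, 15 had no count and 4 were tested, with 0 past the threshold in edgeR, 0 in DESeq2 and 1 at an unadjusted p below 0.05. Ly6e, a broadly expressed member, had 0.30 (SE 0.33, adjusted p = 0.753) and Cd59a, a complement inhibitor, 0.25 (SE 0.18, adjusted p = 0.606). Within 500 kb of Ly6d the tested genes were 3: Ly6e, BC025446 (0.68, adjusted p = 0.211) and Ly6a (-1.10, SE 0.30, adjusted p = 0.111). Ly6a, the stem cell antigen Sca-1, is named as a neighbour and went from 32.6 ± 12.9 to 15.3 ± 3.25 CPM with overlapping groups. It was past the threshold without PiZ replicate 1 and with no filter on low counts, and in none of the other alternatives. The 1 tested neighbour of Spink1, Eif3j2, had -0.036 (adjusted p = 0.965).

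Krt18 and Krt8 are obligate partners, a type I and a type II keratin whose proteins pair into the filaments of hepatocytes. Their genes lie 23.7 kb apart on chromosome 15, pointing away from each other, Krt8 (ENSMUSG00000049382) on the minus strand at chr15:101996698-102004482 and Krt18 (ENSMUSG00000023043) on the plus strand at chr15:102028180-102032027. With Ly6d and Krt7 this chromosome holds 4 of the 10 members. The start regions of this pair are shown because the genes are neighbours whose levels varied together within the groups. Each is read on its gene's own strand from 250 bases before to 30 bases after the RefSeq start (GRCm38.p6, the assembly of mm10), chr15:102004313-102004592 for Krt8 and chr15:102027966-102028245 for Krt18. Capitals mark the letters TATAA, which also occur as the core of a TATA box. Both RefSeq starts and both marked stretches lie inside the gene spans given above, which come from GENCODE. Whether either stretch works as a TATA box was not tested.
Krt8: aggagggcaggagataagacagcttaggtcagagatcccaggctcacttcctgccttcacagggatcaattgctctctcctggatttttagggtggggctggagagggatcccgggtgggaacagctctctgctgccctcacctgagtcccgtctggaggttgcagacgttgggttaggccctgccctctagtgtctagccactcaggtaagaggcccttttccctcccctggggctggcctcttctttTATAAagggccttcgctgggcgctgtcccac
Krt18: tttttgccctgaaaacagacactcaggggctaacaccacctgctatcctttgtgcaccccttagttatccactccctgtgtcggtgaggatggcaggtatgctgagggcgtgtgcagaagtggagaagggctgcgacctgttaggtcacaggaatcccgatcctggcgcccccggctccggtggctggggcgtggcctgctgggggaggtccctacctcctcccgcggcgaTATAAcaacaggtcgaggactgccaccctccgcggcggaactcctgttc

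On the gene's strand the letters TATAA began 1 base before the RefSeq start of Krt8 and 19 bases before that of Krt18. On either strand they occurred in 24% of 32851 RefSeq promoter windows of the same 280 bases; the search counts a match on each strand even where these overlap, as in Krt8. The letters TGCAAT, the core of a site bound by CHOP with its C/EBP partners, were in neither window and in 7.99% of all. TGANTCA, the AP-1 motif, was in neither and in 7.46% of all. Promoter entries matched 5 members by symbol, which also include Spp1, Krt7 and Epcam, and their windows held neither of these motifs. Ly6d, Spink1, Cd24a, Sox9 and Krt19 had no entry.

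Krt18 was lower on average without Chop, but its groups overlapped. PiZ libraries had 401, 512, 632.5 and 493 CPM. PiZ/Chop-/- libraries had 262, 498, 204.5 and 275 CPM. Replicate 2 of the PiZ/Chop-/- group reached into the PiZ range, and the other 3 lay below all PiZ libraries. The means were 509.7 ± 95.2 and 310.1 ± 129 CPM (SD, n = 4 each), a fold change of -0.72 (SE 0.25). It was -1.04 without that replicate.

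Krt8 spread more widely. In PiZ it stood at 25.8, 39.35, 47.6 and 93.0 CPM, and in PiZ/Chop-/- at 23.7, 39.7, 13.4 and 16.3 CPM. PiZ replicate 4 was the highest library, well above the next one, while PiZ replicates 1 and 2 lay below PiZ/Chop-/- replicate 2. Means were 51.4 ± 29.1 and 23.3 ± 11.8 CPM (SD, n = 4 each) and the fold change -1.16 (SE 0.42). Without PiZ replicate 4 it was -0.70.

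The ratio of the pair lay between 5.92 and 9.04 in 7 of the 8 libraries. Per 100 Krt18 counts there were 6.44, 7.69 and 7.52 Krt8 counts in PiZ replicates 1 to 3 and 18.9 in PiZ replicate 4. The PiZ/Chop-/- libraries had 9.04, 7.96, 6.55 and 5.92. PiZ replicate 4 thus stood apart by Krt8 alone, since its Krt18 level was within the range of its group. The ratio was 10.1 ± 5.85 in PiZ (SD, n = 4), 7.22 ± 0.676 without replicate 4 (SD, n = 3), and 7.37 ± 1.40 in PiZ/Chop-/- (SD, n = 4). The capture of each 3' end can differ between genes, so the ratio is compared between libraries and not read as a ratio of transcripts.

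**Figure D2:**
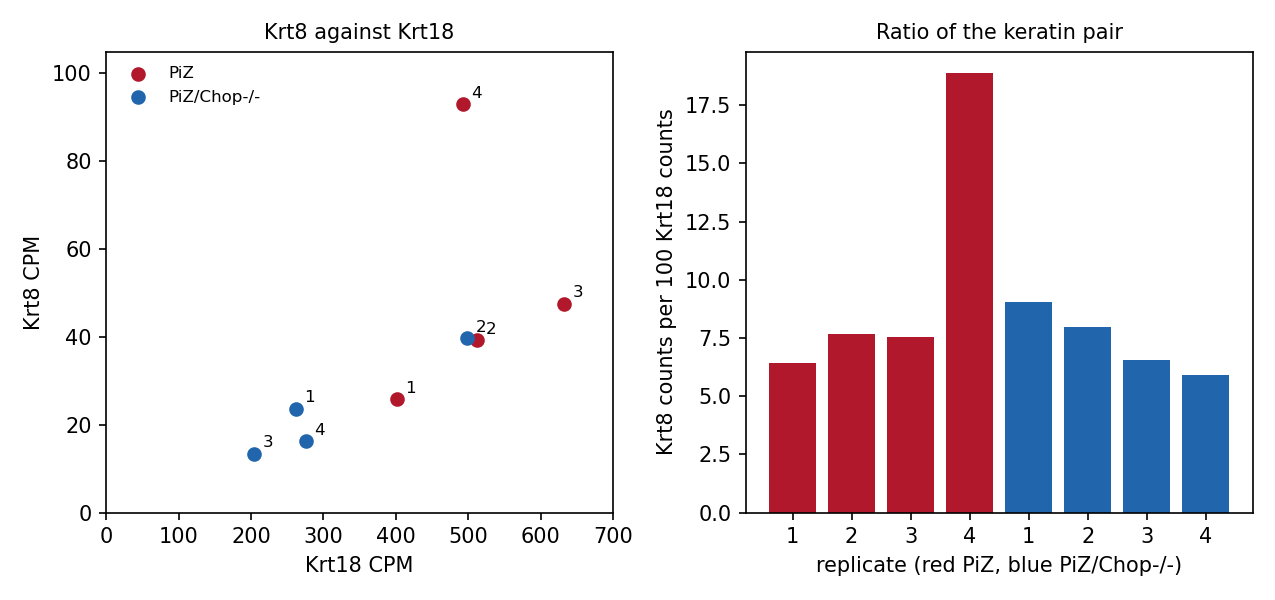
Left, Krt8 against Krt18 in CPM, each point 1 library labelled with its replicate number, PiZ red and PiZ/Chop-/- blue. Right, Krt8 counts per 100 Krt18 counts in each library: 7 libraries lie between 5.92 and 9.04, and PiZ replicate 4 lies at 18.9.

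The genes that work with the keratin filaments were tested next. Of 24 partners, among them linker proteins, desmosome parts and proteins of keratin inclusions, 13 were tested. In edgeR 0 were past the threshold, 5 had an unadjusted p below 0.05, and 8 were below 0 (median -0.28). DESeq2 called 1, Sqstm1. The summed level of the list was 1478 to 1701 CPM in PiZ and 1090 to 1258 CPM without Chop, with no overlap. Most of that gap came from Sqstm1, the most abundant gene of the list, so the sum is not read as a shift of all partners. Sqstm1 is the autophagy receptor p62, found with Krt8 and Krt18 in the inclusions of injured hepatocytes. Its mean was 644 ± 74.8 CPM with Chop and 379 ± 82.4 CPM without it (-0.77, SE 0.20, adjusted p = 0.0831, edgeR). Its groups did not overlap, and it was past the threshold in DESeq2 (adjusted p = 0.0117), without PiZ/Chop-/- replicate 2 (0.0319), when low counts were not filtered (0.0218) and when libraries were scaled by size alone (0.0469). Over all 13 alternatives its adjusted p ran from 0.0117 to 0.261. Ubb, a ubiquitin gene, had -0.28 (adjusted p = 0.571). Within 500 kb, 15 tested genes lay near Krt8 and 16 near Krt18, most of them the same, and none was past the threshold.

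Sox9, a transcription factor of duct cells and of hepatocytes near the portal vein, did not follow the groups. It had 28.9, 18.5, 23.5 and 19.9 CPM in PiZ. In PiZ/Chop-/- it had 38.1, 40.8, 12.4 and 13.97 CPM. Replicates 1 and 2 of the PiZ/Chop-/- group were above all PiZ libraries, and replicates 3 and 4 were below all of them. The coefficient of variation was 20.5% in PiZ and 57.8% in PiZ/Chop-/-. Means were 22.7 ± 4.65 and 26.3 ± 15.2 CPM (SD, n = 4 each), and the fold change was 0.21 (SE 0.36). Its sign turned without PiZ/Chop-/- replicate 1 (-0.030) or 2 (-0.062). Sox9 (ENSMUSG00000000567) is at chr11:112782224-112787760.

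Among other Sox genes and transcription factors of ducts and liver progenitors 14 of 23 were tested. In edgeR 1 was higher and none lower, 7 had an unadjusted p below 0.05, and the median was 0.41. The share of all tested genes below that unadjusted p is not given here, so nothing is read from the 7. DESeq2 called 2, Sox5 and Onecut1. Past the threshold in edgeR was Sox5, which rose from 11.6 ± 3.01 to 27.3 ± 4.19 CPM (SD, n = 4 each; 1.24, SE 0.26, adjusted p = 0.0294, edgeR). Leaving out PiZ replicate 2 or 3 ended that call (adjusted p = 0.0881 and 0.0829), as did leaving out PiZ/Chop-/- replicate 1, 3 or 4 (0.0734, 0.103 and 0.108) or scaling by size alone (0.0534).

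Spp1 encodes osteopontin, a secreted phosphoprotein made by duct cells and, in injury, by macrophages and stellate cells. Its PiZ values were 5.54, 10.7, 12.2 and 8.07 CPM. Its PiZ/Chop-/- values were 3.25, 6.90, 3.97 and 6.06 CPM. PiZ replicate 1 lay inside the PiZ/Chop-/- range, and the other 3 PiZ libraries were above all of that group. The counts behind these values were 7 to 38 per library. Means were 9.13 ± 2.94 and 5.04 ± 1.71 CPM (SD, n = 4 each), a fold change of -0.89 (SE 0.38). Spp1 (ENSMUSG00000029304) is at chr5:104435118-104441050.

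Macrophage and stellate cell markers were counted beside Spp1. Of 20 macrophage genes 16 were tested and 14 were below 0 (median -0.38); 0 passed in edgeR, 6 had an unadjusted p below 0.05, and DESeq2 called 1, Gpnmb. Their summed level was 1167 to 1655 CPM with Chop and 884 to 1069 CPM without it, with no overlap. The largest part of that gap came from Cd5l, with means of 520 CPM with Chop and 317 CPM without it. Of 20 stellate cell and matrix genes all 12 tested were below 0 (median -0.57); 0 passed in edgeR, 3 had an unadjusted p below 0.05, and DESeq2 called 1, Col1a1. Their summed level overlapped (973 to 1858 and 972 to 1569 CPM). The macrophage marker Cd5l had -0.71 (adjusted p = 0.179) and the matrix proteoglycan Dcn -0.28 (adjusted p = 0.616). The part of these cells in the Spp1, Ly6d and Spink1 levels was not tested. Of 17 receptors and proteases of osteopontin 8 were tested, 6 were below 0 (median -0.25) and 0 passed in edgeR or DESeq2, 2 with an unadjusted p below 0.05. Itgb1, a shared integrin chain, had 0.11 (adjusted p = 0.867).

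The duct markers proper were nearly absent from these libraries. Epcam, an adhesion protein of duct and progenitor cells, had 12 counts over the PiZ and 3 over the PiZ/Chop-/- libraries, 8 of the 12 in PiZ replicate 3. Krt19 had 13 and 8 counts. All 13 of the PiZ counts came from replicate 3, and 4 of the 8 libraries had none. Where a library had 0 counts, that allows up to 3 counts, which is 0.965 to 1.84 CPM across the libraries and covers counting error only.

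Krt7 had 20 and 5 counts. In PiZ these were 5, 5, 8 and 2, and in PiZ/Chop-/- all 5 came from replicate 1. Cd24a, a small sialoglycoprotein of progenitor, duct and blood cells, had 18 and 17 counts, with 1 to 10 per library in PiZ and 1 to 8 in PiZ/Chop-/-. The ratios of summed counts per scaled library size, PiZ/Chop-/- over PiZ, with exact 95% intervals for counting error, were 0.276 (0.0810 to 0.759) for Krt7 and 0.276 (0.050 to 1.02) for Epcam. They were 0.680 (0.244 to 1.77) for Krt19 and 1.04 (0.506 to 2.15) for Cd24a. These intervals leave out the spread between libraries, in which 1 library held most of the counts for Krt19, Epcam and, in PiZ/Chop-/-, Krt7.

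**Figure D3:**
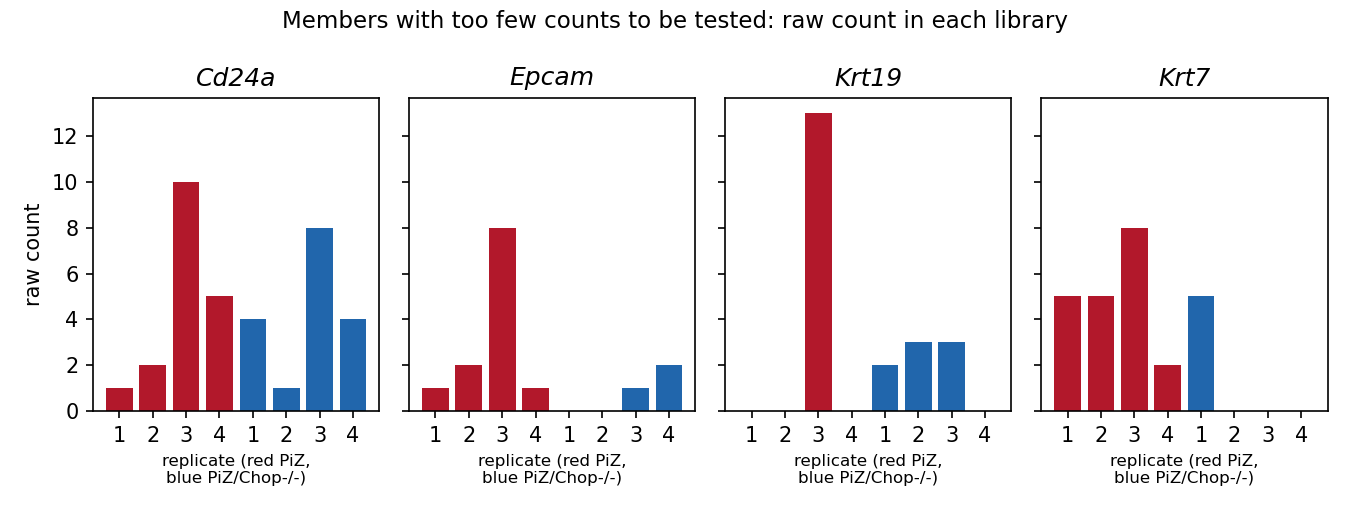
Raw counts of Cd24a, Epcam, Krt19 and Krt7 in each library, PiZ red and PiZ/Chop-/- blue, on 1 linear axis. No library has more than 13 counts of any of them, and PiZ replicate 3, the deepest library, has the most in each.

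Other cholangiocyte markers were scarce too. Sctr, Cldn4 and Cftr had 1, 2 and 4 counts in all 8 libraries. Of 24 markers 10 were tested, most of them genes that hepatocytes or other liver cells express too. In edgeR 0 passed, 3 had an unadjusted p below 0.05, and 5 were below 0 (median -0.042). DESeq2 called 2, Prom1 and Onecut1, which are named here after their values were seen and went opposite ways. Onecut1, a transcription factor of hepatocytes and ducts that is on the list of duct factors too, had 20.9, 73.3, 15.4 and 10.4 CPM in PiZ. It had 137, 149, 92.8 and 183 CPM in PiZ/Chop-/-, all above the PiZ libraries (2.23, SE 0.60, adjusted p = 0.185, edgeR). It was past the threshold in DESeq2 (adjusted p = 0.0344) and without PiZ replicate 2, its highest PiZ library (adjusted p = 4.79e-05, edgeR), and over all 13 alternatives its adjusted p ran up to 0.339. Prom1, the progenitor antigen CD133, averaged 12.2 ± 7.09 CPM with Chop and 2.42 ± 2.27 CPM without it (-2.28, SE 0.58, adjusted p = 0.0860, edgeR), and its groups did not overlap. It was past the threshold in DESeq2 (0.0280), with no filter on low counts (0.000227) and without PiZ/Chop-/- replicate 4 (0.0422), and over all 13 alternatives its adjusted p ran up to 0.240. The adhesion genes Cdh1 (0.38, adjusted p = 0.564) and Cldn3 (-0.12, adjusted p = 0.850) were the most abundant markers. The markers restricted to ducts, Krt7, Krt19 and Epcam included, were thus at or near 0, and the abundant members here (Krt18, Krt8, Ly6d, Spink1 and Sox9) are not specific to ducts.

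The signalling routes linked to duct features in liver showed no gene past the threshold. Of 26 targets and parts of the YAP and TEAD route 15 were tested, with 0 past the threshold in edgeR or DESeq2, 3 at an unadjusted p below 0.05 and a median of -0.044. Yap1 itself had -0.044 (adjusted p = 0.959) and Vgll4 0.86 (adjusted p = 0.288). Of 20 Notch pathway genes 7 were tested, with 0 past the threshold in edgeR or DESeq2, 0 at an unadjusted p below 0.05 and a median of -0.21. Adam10, a protease that cuts Notch at the cell surface, had -0.11 (adjusted p = 0.907).

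Other markers of injured or dedifferentiated hepatocytes were lower in part. Of 32 such genes 19 were tested, of which 4 fell, none rose and 16 were below 0 (median -0.71). Over all tested genes 0.692% passed as lower and the median was -0.0016. The list was drawn up with earlier results of this comparison known, so nothing is read from its counts. Cd63, a tetraspanin of lysosomes and secreted vesicles, fell from 311 ± 93.6 to 77.5 ± 20.9 CPM (SD, n = 4 each; -2.0, SE 0.24, adjusted p = 0.000383, edgeR). Lcn2, lipocalin 2, a secreted protein of injured epithelium and of neutrophils, fell from 90.3 ± 41.4 to 18.0 ± 8.13 CPM (-2.30, SE 0.38, adjusted p = 0.0113). Its call was lost without PiZ/Chop-/- replicate 1 or 3 (adjusted p = 0.0688 and 0.0626).

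Lgals1, galectin 1, fell from 74.6 ± 10.3 to 41.2 ± 3.49 CPM (-0.86, SE 0.19, adjusted p = 0.0386) and Anxa2, a membrane-binding annexin, from 202 ± 70.0 to 94.9 ± 20.0 CPM (-1.09, SE 0.24, adjusted p = 0.0417). Stellate cells and macrophages express these genes too. The Lgals1 call ended when PiZ replicate 1, 2 or 3 was left out (adjusted p = 0.0507, 0.0803 and 0.146), or PiZ/Chop-/- replicate 1, 3 or 4 (0.120, 0.140 and 0.114). That of Anxa2 ended when PiZ replicate 2 or 3 was left out (adjusted p = 0.107 and 0.146), or PiZ/Chop-/- replicate 1, 3 or 4 (0.105, 0.169 and 0.148).

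Lcn2 was also 1 of the 3 tested neutrophil markers. The other two, the calcium-binding proteins S100a8 and S100a9, had 0.35 (SE 1.12, adjusted p = 0.929) and -0.25 (SE 0.94, adjusted p = 0.940). Summed neutrophil markers, Lcn2 included, were 66.0 to 182 CPM with Chop and 23.2 to 108 CPM without it, with overlap. Most of the sum in PiZ was Lcn2 (means of 90.3 CPM with Chop and 18.0 CPM without it). The sum is thus not separate from the Lcn2 result and is not read as a shift of all neutrophil markers. Of 20 fetal liver genes 4 were tested and all 4 were below 0 (median -1.78). Afp, alpha-fetoprotein, fell from 24.4 ± 10.8 to 1.37 ± 0.817 CPM (-4.09, SE 0.48, adjusted p = 0.000243). Meg3, an imprinted noncoding RNA named after its values were seen, had 71.2 ± 55.0 CPM with Chop and 11.6 ± 4.88 CPM without it, and its groups did not overlap (-2.61, SE 0.56, adjusted p = 0.0788, edgeR). DESeq2 called it (adjusted p = 1.28e-05), as did edgeR without PiZ replicate 3, its highest library (-1.90, adjusted p = 0.0175), and with no filter on low counts (8.55e-05). Over all 13 alternatives its adjusted p ran up to 0.218. Red cell markers, 7 of 14 tested, had a median of 0.36, with 0 past the threshold in edgeR or DESeq2 and 2 at an unadjusted p below 0.05. None of the 19 hepatocyte markers passed in edgeR or DESeq2 (4 with an unadjusted p below 0.05), and their median was -0.013.

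Over all 16 lists, which held 148 distinct tested genes, 5 genes fell and 1 rose, or 4.05%, beside 1.03% of all tested genes. The lists were drawn up with earlier results of this comparison known, so nothing is read from that share. The same holds for the counts of each list, those at an unadjusted p below 0.05 and those below 0 included.

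**Figure D4:**
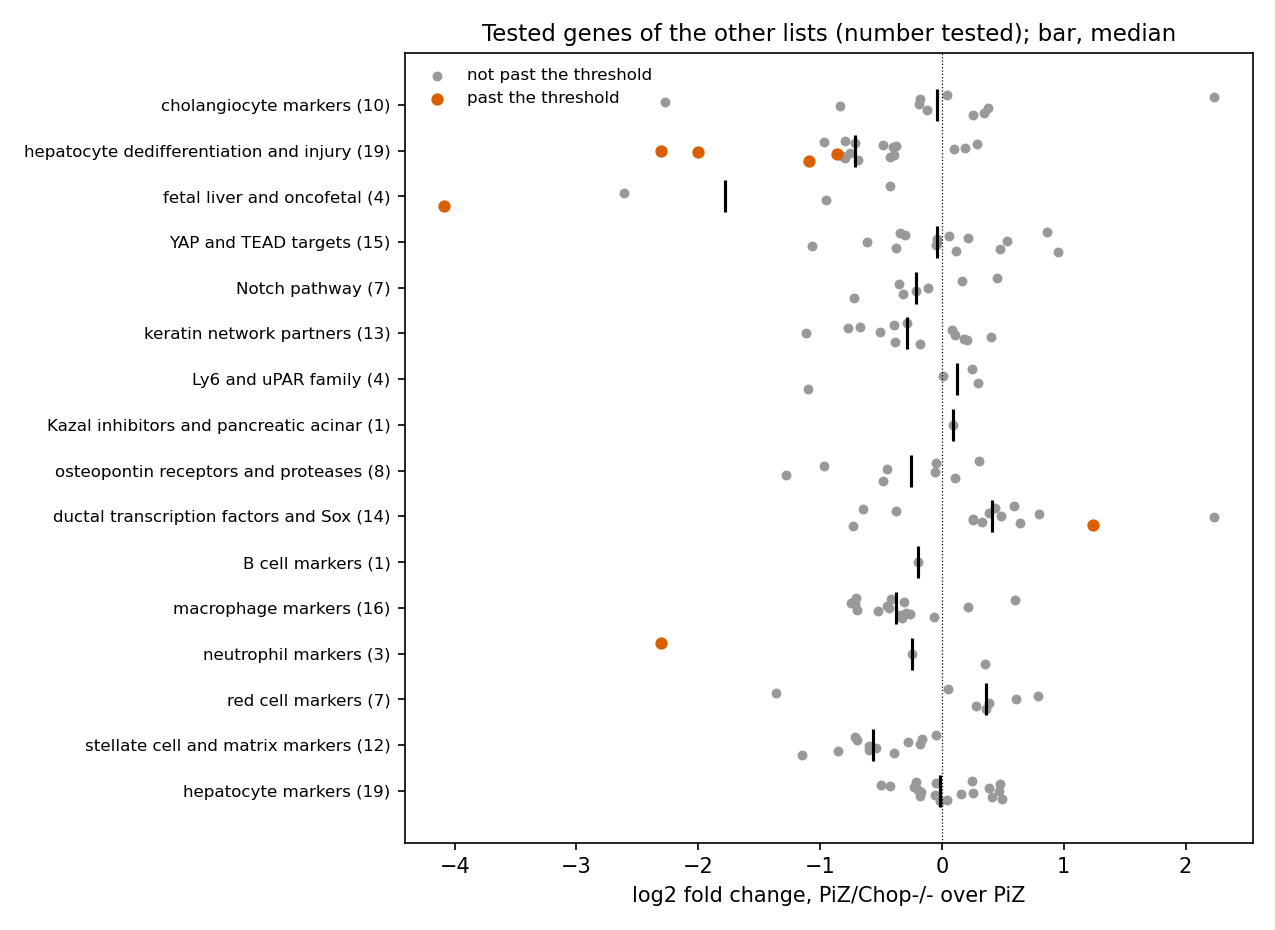
Log2 fold changes (PiZ/Chop-/- over PiZ) of the tested genes on each other list, 1 point a gene, with the number tested in brackets and a bar at the median. Orange points are past the threshold: Cd63, Lcn2, Lgals1, Anxa2 and Afp to the left and Sox5 to the right, with Lcn2 on 2 lists.

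The spread within the groups, which the choice of genes did not use, was compared by the Pearson correlation of each gene's deviations from its group means over the 8 libraries, which share their depth and preparation. Krt8 and Krt18 had 0.68 and Spp1 and Krt18 0.76. Ly6d and Spink1 had 0.040, so their deviations showed almost no linear relation. Counting error is part of the Ly6d deviations in PiZ/Chop-/-, where it had 6 to 20 counts per library, and this holds for all its correlations here. Spink1 had 0.69 with the SERPINA1 transgene and Krt8 -0.73 with Ddit3, while Ly6d had -0.10 and 0.077 with these. Ddit3 had only 3 to 9 counts in the PiZ/Chop-/- libraries, where its deviations are largely counting error. In PiZ, replicate 4 had both the highest Krt8 (93.0 CPM) and the lowest Ddit3 (85.4 CPM). A link between Krt8 and Ddit3 was not tested. Among 3354 genes of ample level the closest to Ly6d were Ddx6 (0.99), Nfkbia (0.95) and Sh2b1 (0.93), whose own fold changes were 0.12, 0.40 and 0.069. Those closest to Spink1, of 3353, were Gna11 (0.97), Stard5 (0.95) and Ilkap (0.95). Spp1 was most like Dsp, desmoplakin, which ties keratin filaments to desmosomes (0.93), and like Pgrmc1 (0.92). Krt8 was most like Rpl34 (0.99), Fam25c (0.96) and Nub1 (0.96). These values describe the 8 libraries only.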

How the data were processed

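The authors deposited 1 table of read counts per gene and library, and the values are raw counts, per the labels and as the whole numbers show. Per the submitters' processing notes, reads were handled with STAR and HTSeq on mm10; no versions are named. Each table holds 52550 mouse Ensembl IDs and a row for human SERPINA1; 52403 IDs matched GENCODE M21, which gave symbols and positions. No label says whether counting used strand.

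Groups came from the labels. In R 4.3.3, edgeR 4.0.16 (filterByExpr with a minimum count of 10, TMM scaling, robust quasi-likelihood test over 4 against 4 libraries, no covariate) tested 8669 genes with Benjamini-Hochberg adjustment at 0.05. The library size is the sum over tested genes, and CPM use it after TMM scaling. Every p is from this fit unless DESeq2 1.42.0 is named. Likeness used log2 CPM (prior count 2) with group means subtracted, over genes whose mean log2 CPM was 5 or more. The code was tested on simulated data.

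The 10 genes and 16 lists were chosen with earlier results of these data known. From each list the text names genes past the threshold, up to 4 by lowest p, or in a list with none up to 2 of the highest level; others are marked as named after their values were seen. Alternatives were other scalings, no filter on low counts, the replicate number as a block, DESeq2 and leaving out each library. Promoter sequences are RefSeq's (GRCm38.p6). Totals of 1650260 to 3064385 counts make 1 count 0.32 to 0.62 CPM, and intervals and floors cover counting error only. Some genes that the rule for named genes would name are not reported here.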

Additional observations from a re-analysis of the deposited data

Results flagged for a closer look

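In 20 groups of 4 libraries, 1 for each of the 10 genes in each genotype, a library was singled out where its gap to the nearest other library, divided by the range of the group, exceeded Dixon's 95% critical value. For continuous values chance does so in about 1 in 20 such groups. Here 2 were found, and in both the other 3 libraries had 0 counts, so that any count in the remaining library meets the rule and the rate does not apply. Krt19 stood at 4.18 CPM in PiZ replicate 3 (13 counts), while the other PiZ libraries had 0 counts. That library also held 8 of the 12 Epcam counts of its group and, named after its values were seen, 26 counts of the duct keratin Krt23 against 4, 4 and 8 in the others. Krt7 stood at 2.32 CPM in PiZ/Chop-/- replicate 1 (5 counts), while the other PiZ/Chop-/- libraries had 0.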

How the results depend on the processing

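Ly6d and Spink1 were past the threshold, lower in PiZ/Chop-/-, in all 13 alternatives, with fold changes from -5.14 to -4.44 and from -2.07 to -1.77. The members were chosen on this contrast and the alternatives reuse the same libraries, so nothing is read from the calls of members. Of the 4 other tested members Krt8 and Krt18 also passed with no filter on low counts, and Krt18 without PiZ/Chop-/- replicate 2; Sox9 changed sign without PiZ/Chop-/- replicate 1 or 2 and was never past the threshold. The cause of these changes was not tested. Of all genes 89 were past the threshold (60 lower, 29 higher), against 357 with no filter (182 lower, 175 higher), 208 in DESeq2 (114 lower, 94 higher) and 46 to 169 with 1 library left out (32 to 102 lower, 12 to 67 higher). The count was highest without PiZ/Chop-/- replicate 2 (169), and fell to 53 without PiZ replicate 3 and to 49, 46 and 51 without PiZ/Chop-/- replicate 1, 3 and 4. Without PiZ replicate 4, 54 genes were higher. Library size as the only scaling left 19 higher and moved the median of all genes to -0.077. List genes past the threshold were 6, against 17 with no filter (gained were Prom1, Meg3, Vgll4, Sqstm1, Ly6a, Pnliprp1, Cd5l, Gpnmb, Alas2, Tfrc and Col1a1), 12 in DESeq2 and 2 to 8 with 1 library left out. They were 2 without PiZ/Chop-/- replicate 1 or 3. With the replicate block 76 genes passed (48 lower, 28 higher) and 4 list genes; Lgals1, Anxa2 and Sox5 were lost (adjusted p = 0.0899, 0.0756 and 0.0527, edgeR) and Meg3 was gained (0.0118). Libraries with the same number did not deviate together (correlations -0.051 to 0.049, 2 of 8 libraries closest to their own number), so the numbers are not taken as pairs. Depth limits Cd24a, Epcam, Krt19 and Krt7, whose counts the filter left out.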
